A study of Mus musculus with 9 samples.

Results

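The genes described here build the tight junction, and were chosen by name as 8 claudins with 2 partner proteins: Cldn1, Cldn4, Cldn5, Cldn7, Cldn8, Cldn10, Cldn12, Cldn23, occludin (Ocln) and Tjp1, which encodes the scaffold protein ZO-1. They are 10 of the 54838 genes in the count tables, and their claudins are 8 of the 33 protein-coding claudin genes there. Of the 10, 8 had enough counts to be tested, and Cldn5 and Cldn7 did not. RNA of mouse ears was read by 3' tag RNA-seq, which reads each transcript near its 3' end, so a count is close to a number of transcripts and does not grow with gene length. All mice were C57BL/6, were 10 weeks of age, and received 15 µg of minicircle (MC) DNA, a small expression circle, by hydrodynamic injection into the tail vein. Wild-type mice with a GFP minicircle (the GFP group), wild-type mice with an IL-23 minicircle, and Mdl-1-/- mice with the IL-23 minicircle gave 3 libraries each. MDL-1, the product of Clec5a, is a receptor of myeloid cells, and the series asks how it shapes the transcriptome of skin inflamed by IL-23. Whether the libraries of a group come from different animals is not stated in the labels, and p-values therefore reflect only how far these libraries spread, which may be technical. With no Mdl-1-/- mice that received GFP, a genotype difference present before IL-23 cannot be told apart from a different response to IL-23.

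Tight junctions are belts of strands that close the space between neighbouring epithelial cells. Claudins, small proteins with 4 membrane passes, polymerise into the strands and set which ions and solutes pass; occludin sits in the same strands, and ZO-1 ties them to actin inside the cell. In epidermis the functional belt lies in the granular layer, below the cornified layer. Claudin-1 is its main sealing protein, and mice without it lose water through the skin and die soon after birth.

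Promoters, the 250 bases before and 50 bases after a transcription start, are shown for the 3 genes whose levels the results below turn on most and that the RefSeq table held (build GRCm38.p6). The table held 8 of the 10 genes; Cldn8 and Cldn23 were missing. Capitals mark matches to 5 motifs, each searched on both strands. The AP-1 motif was spelled TGANTCA. For STAT factors the motif was TTCNNNGAA, and for the grainyhead-like (GRHL) factors it was AACCGGTT. The E-box searched for was CAGGTG. The motif of the start-site box was spelled TATAAA. None of these spellings contains another. Cldn4 lies at chr5:134946885-134947184, minus strand; Cldn1 at chr16:26371790-26372089, minus strand; and the first of the Ocln starts at chr13:100552669-100552968, minus strand.
Cldn4: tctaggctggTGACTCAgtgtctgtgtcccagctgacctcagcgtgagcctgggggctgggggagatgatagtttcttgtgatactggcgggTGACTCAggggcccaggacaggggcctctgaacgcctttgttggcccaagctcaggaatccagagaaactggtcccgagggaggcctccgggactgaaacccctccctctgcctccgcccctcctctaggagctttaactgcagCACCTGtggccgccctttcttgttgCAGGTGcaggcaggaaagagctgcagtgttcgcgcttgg
Cldn1: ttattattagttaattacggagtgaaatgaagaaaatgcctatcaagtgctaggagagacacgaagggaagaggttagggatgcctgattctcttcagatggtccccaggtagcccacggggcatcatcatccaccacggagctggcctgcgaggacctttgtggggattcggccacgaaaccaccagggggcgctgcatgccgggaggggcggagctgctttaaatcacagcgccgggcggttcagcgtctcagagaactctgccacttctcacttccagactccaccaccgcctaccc
Ocln: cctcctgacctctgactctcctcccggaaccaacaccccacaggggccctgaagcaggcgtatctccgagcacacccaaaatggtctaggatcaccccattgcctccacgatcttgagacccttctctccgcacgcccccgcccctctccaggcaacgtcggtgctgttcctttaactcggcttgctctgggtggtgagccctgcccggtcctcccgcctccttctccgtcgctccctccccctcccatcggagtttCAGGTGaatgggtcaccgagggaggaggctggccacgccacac

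The Cldn4 window holds 2 AP-1 matches, both TGACTCA, at bases -240 and -158 from the start, and 2 E-box matches at bases -14 and 11. Of 32851 promoter windows of the same length, 7.81% hold an AP-1 match and 20.2% an E-box match. The Cldn1 window holds none of the 5 motifs, and the Ocln window holds 1 E-box match, at base 7. STAT matches, present in 8.3% of all windows, fell in 1 of the windows of Cldn7 and in 2 overlapping windows of Cldn12, where they are the same site. E-box matches also lay in that Cldn7 window, at bases -97 and -57, and in another, overlapping Ocln window, at bases -213 and -68. The site at -213 is the one at base 7 of the Ocln window shown. The Tjp1 window had no match. GRHL matches stood in 0.146% and start-site box matches in 13.6% of all windows, and in none of the 13 windows of these genes. A match is a string of letters and does not show that a factor binds.

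Library totals ran from 3776188 to 5605713 counts, and levels are given as counts per 1000000 counts of the library (CPM) after scaling by trimmed mean of M-values (TMM). By raw library totals, before TMM scaling, a count of 0 allows up to 0.535 CPM in the deepest library and up to 0.794 CPM in the shallowest, counting error only. After TMM scaling these limits differ: in wild-type IL-23 library 3, the shallowest, 1 count alone is 0.331 CPM. Neutrophil marker genes took 0.031% to 0.0446% of a library's counts with GFP, 3.25% to 5.95% in wild type with IL-23 and 0.669% to 2.42% in Mdl-1-/- with IL-23. The 10 genes of that list include S100a8 and S100a9. Their summed level had a median of 360 CPM with GFP and 46623 CPM in wild type with IL-23. The tested genes of the list had a median log2 fold change of 2.51 there, so part of the list carries the share, which is no measure of neutrophil number. Mitochondrial genes took 12.6% to 15.1%, 8.69% to 8.99% and 11.4% to 12.9%. Results that change with the way libraries are scaled are given below with each gene. Clec5a was read in all 9 libraries, with 5 to 13 counts in those labelled Mdl-1-/-, 11 to 21 in wild type with IL-23 and 2 to 10 with GFP. No label names the stretch that was deleted, and tags from outside it check nothing.

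Under IL-23 in wild-type ears, Cldn4 rose 3.73-fold, Cldn8 and Cldn10 fell, and Cldn1, the claudin with the most counts, was not called different from GFP, or was called lower if libraries were scaled by total counts. In Mdl-1-/- ears with IL-23, Cldn1 stood 1.72-fold and Cldn23 3.06-fold above wild-type ears with IL-23, and no member was called lower. Against wild-type ears with GFP, the Mdl-1-/- ears had higher Cldn1, Cldn4, Cldn23 and Ocln. Here "called" means a Benjamini-Hochberg adjusted p under 0.05 in edgeR's quasi-likelihood test, adjusted over the 13807 genes tested.

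**Figure D1:**
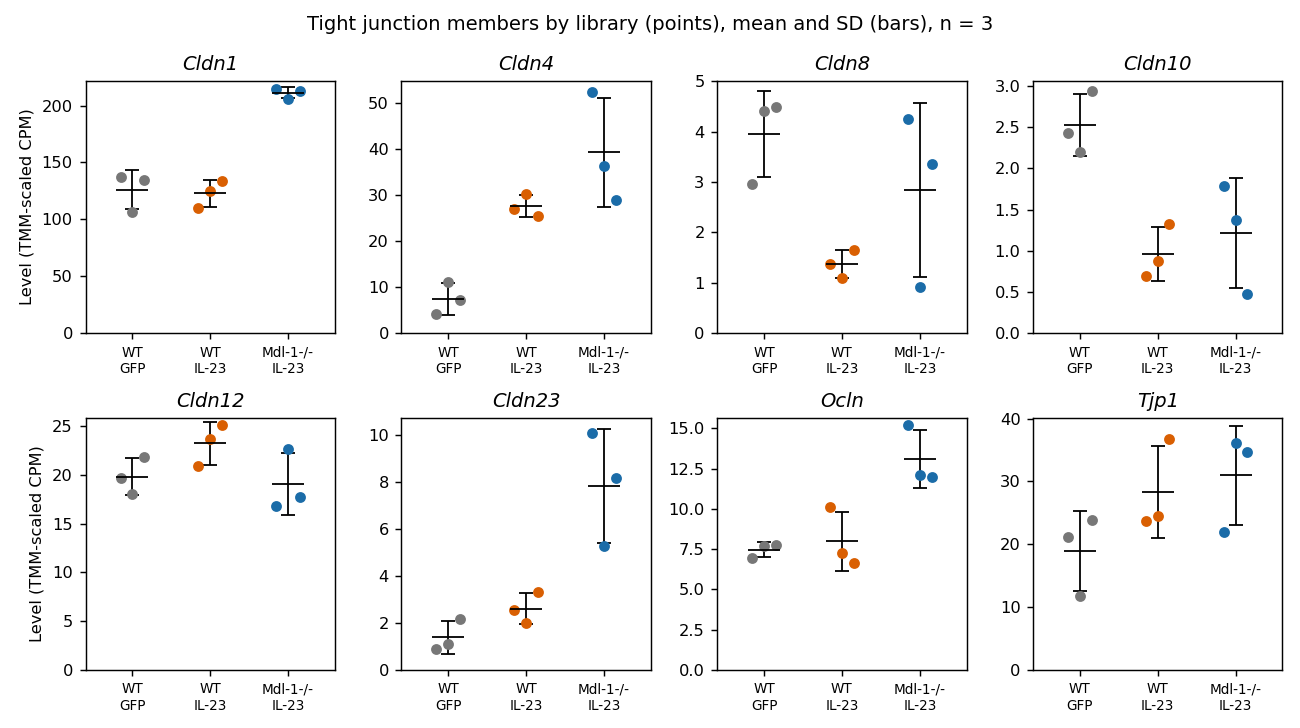
Level of the 8 tested genes in each library, in TMM-scaled CPM on axes that start at 0 and differ between panels; points are libraries, and bars give the mean and SD of 3 libraries. The 3 Mdl-1-/- points of Cldn1, from 206 to 215 CPM, lie above all 6 wild-type points, and the 3 GFP points of Cldn4 lie below all of its 6 IL-23 points.

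Cldn1 (chromosome 16, 26356642 to 26371841, minus strand, 4 exons, GENCODE M21 on GRCm38) read 137, 106 and 135 CPM in the wild-type GFP libraries 1 to 3. Wild-type IL-23 libraries read 110.0, 125 and 134 CPM, and Mdl-1-/- IL-23 libraries 215, 206 and 213 CPM. The wild-type groups overlap almost fully, and every Mdl-1-/- library lies above every wild-type library. Means were 126 ± 17.4, 123 ± 11.9 and 211 ± 4.79 CPM (SD, n = 3). Mdl-1-/- IL-23 ears exceeded wild-type IL-23 ears by a log2 fold change of 0.78 (SE 0.14, edgeR adjusted p = 0.00262) and wild-type GFP ears by 0.74 (SE 0.14, edgeR adjusted p = 0.00186). Both calls held under all 20 alternative settings tried for each. For IL-23 against GFP in wild type the log2 difference was -0.04, with a 95% interval of -0.34 to 0.26. That last result depends on scaling: by total counts without TMM, Cldn1 read 146 ± 21.4, 107 ± 4.77 and 207 ± 12.8 CPM (SD, n = 3), and was called lower with IL-23 in wild type (log2 -0.45, edgeR adjusted p = 0.0139). The median of all tested genes moved to -0.44 in that comparison under the same scaling, so Cldn1 lay next to the median of all genes under both scalings.

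Cldn4, a sealing claudin of upper epidermal layers and a receptor of Clostridium perfringens enterotoxin, is a single-exon gene (chromosome 5, 134945119 to 134946934, minus strand). It read 4.18, 11 and 7.12 CPM with GFP, 27.0, 30.2 and 25.5 CPM in wild type with IL-23, and 52.3, 36.4 and 29.0 CPM in Mdl-1-/- with IL-23. Every IL-23 library, of either genotype, exceeded every GFP library, and the genotypes overlapped. The rise in wild type, from 7.44 ± 3.43 to 27.6 ± 2.42 CPM (SD, n = 3), was 1.90 on the log2 scale (SE 0.29, edgeR adjusted p = 0.000168). In Mdl-1-/- ears the mean was 39.2 ± 11.9 CPM (SD, n = 3), 2.40 above GFP on the log2 scale (SE 0.29, edgeR adjusted p = 0.000102). Both calls held in all 20 settings. Between genotypes under IL-23 the log2 difference was 0.51, with a 95% interval of -0.06 to 1.07 (edgeR adjusted p = 0.199).

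Cldn23, a claudin with a long cytoplasmic tail (chromosome 8, 35824712 to 35826559, minus strand), was read at low counts. It stood at 0.870, 1.10 and 2.17 CPM with GFP, at 2.52, 1.97 and 3.31 CPM in wild type with IL-23, and at 10.1, 5.26 and 8.15 CPM in Mdl-1-/- with IL-23. The wild-type groups overlap, and the Mdl-1-/- libraries lie above both. In counts the Mdl-1-/- libraries held 45, 23 and 34, against 11, 9 and 10 in wild type with IL-23. The genotype difference under IL-23 was 1.61 on the log2 scale (SE 0.40, edgeR adjusted p = 0.0129). Leaving out library 2 of wild type with IL-23 or Mdl-1-/- library 1 ended the call (edgeR adjusted p = 0.0651 and 0.0639), with log2 differences of 1.45 and 1.39. Mdl-1-/- IL-23 ears exceeded wild-type GFP ears 5.50-fold (edgeR adjusted p = 0.00078), and that call held in all 19 settings that gave a value. For IL-23 against GFP in wild type, the log2 difference of 0.85 did not pass (95% interval -0.14 to 1.84).

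Ocln, the gene of occludin (chromosome 13, 100496507 to 100552718, minus strand, coding transcripts of 4 to 9 exons), read 6.96, 7.71 and 7.73 CPM with GFP. It read 10.1, 7.22 and 6.61 CPM in wild type with IL-23, and 15.2, 12.1 and 12.0 CPM in Mdl-1-/- with IL-23. The Mdl-1-/- libraries lie above all wild-type libraries. Against GFP the log2 difference was 0.81 (SE 0.24, edgeR adjusted p = 0.0261). This call was lost without GFP library 1 (0.0817) or 3 (0.0722), without Mdl-1-/- library 1 (0.0911) or 2 (0.0524), and with total-count scaling (0.116, and 0.10 with neutrophil genes also left out), all edgeR adjusted p. Against wild-type IL-23 ears the log2 difference of 0.70 missed the threshold (SE 0.24, edgeR adjusted p = 0.0555). It passed without wild-type IL-23 library 1 (0.0318), with upper-quartile factors (0.0418), with a minimum count of 30 (0.0417) and with total-count scaling (0.0341 and 0.0395). In wild type, IL-23 and GFP differed by 0.11 on the log2 scale (95% interval -0.42 to 0.63).

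Tjp1, the gene of the ZO-1 scaffold (chromosome 7, 65296165 to 65527781, minus strand), read 21.1, 11.8 and 23.8 CPM with GFP. It read 23.6, 24.5 and 36.7 CPM in wild type with IL-23, and 21.9, 36.1 and 34.7 CPM in Mdl-1-/- with IL-23. All groups overlap, and GFP library 2 holds the lowest value. No comparison was called: the log2 differences were 0.56 for IL-23 against GFP in wild type (95% interval -0.02 to 1.14), 0.14 between genotypes under IL-23 (-0.43 to 0.72), and 0.70 for the Mdl-1-/- IL-23 ears over GFP (0.13 to 1.28, edgeR adjusted p = 0.0846). Without a filter on low counts the first passed (edgeR adjusted p = 0.0331), as did the third (0.00767), and the third also passed with the replicate number as a block (0.0386) or without Mdl-1-/- library 1 (0.0266).

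Cldn8 and Cldn10 were the members that fell with IL-23 in wild type. Cldn8, best known as a barrier claudin of the distal nephron, is a single-exon gene (chromosome 16, 88560828 to 88563183, minus strand). It was read at 17, 24 and 29 counts with GFP, 6, 5 and 5 in wild type with IL-23, and 19, 4 and 14 in Mdl-1-/- with IL-23. In CPM these were 2.96, 4.41 and 4.49, then 1.37, 1.09 and 1.65, then 4.25, 0.915 and 3.35. The wild-type groups do not overlap, and Mdl-1-/- library 2 lies below the other libraries of its group and below all wild-type IL-23 libraries. The wild-type fall was 2.90-fold (log2 -1.53, SE 0.51, edgeR adjusted p = 0.0219). It missed the threshold without GFP library 3 (0.0693) or without wild-type IL-23 library 1 (0.0539) or 2 (0.0834), all edgeR adjusted p. The genotype difference under IL-23, log2 1.06, had a 95% interval of -0.08 to 2.21, and was called only without Mdl-1-/- library 2 (log2 1.49, edgeR adjusted p = 0.0413). Mdl-1-/- IL-23 and GFP ears differed by -0.47 (95% interval -1.41 to 0.47).

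Cldn10, whose splice forms make ion-selective pores rather than seals (chromosome 14, 118787908 to 118875489, plus strand), was read at 14, 12 and 19 counts with GFP and 3, 4 and 4 in wild type with IL-23. Mdl-1-/- IL-23 libraries held 8, 6 and 2 counts. In CPM the groups averaged 2.53 ± 0.376, 0.962 ± 0.326 and 1.21 ± 0.669 (SD, n = 3), and every IL-23 library was below every GFP library. The wild-type fall was 2.68-fold (log2 -1.42, SE 0.53, edgeR adjusted p = 0.0384). Of the members' calls it was lost under the most settings, 9 of 19. These were leaving out any single GFP or wild-type IL-23 library (edgeR adjusted p from 0.0519 to 0.129), using no count filter (0.0777), DESeq2 (adjusted p = 0.0875) and a replicate block (0.0535). Mdl-1-/- IL-23 against GFP gave -1.03 (95% interval -2.08 to 0.01), and the genotypes under IL-23 differed by 0.39 (-0.90 to 1.68).

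Cldn12, a claudin without the tail motif that binds ZO proteins (chromosome 5, 5489537 to 5514958, minus strand), was read evenly. Its levels were 19.7, 18 and 21.8 CPM with GFP, 20.9, 23.6 and 25.1 CPM in wild type with IL-23, and 16.8, 22.6 and 17.7 CPM in Mdl-1-/- with IL-23. All groups overlap. The log2 differences were 0.22 for IL-23 in wild type (95% interval -0.17 to 0.61), -0.28 between genotypes (-0.68 to 0.12) and -0.06 for the Mdl-1-/- IL-23 ears over GFP (-0.45 to 0.33). The first turned to -0.19 by total counts, still short of the threshold.

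Cldn5 and Cldn7 were too low to test. Cldn5, the main claudin of blood vessel endothelium (chromosome 16, 18776847 to 18778262, plus strand), had 3, 0 and 0 counts with GFP, 0, 3 and 1 in wild type with IL-23, and 1, 2 and 1 in Mdl-1-/- with IL-23. Other endothelial markers were read: Pecam1 held 11 to 62 counts in every library, and 17 of 18 markers had counts in each group, Sox18 being at 0 throughout. Their levels were low too: 8 of the 18 had enough counts to be tested, and all 18 summed to 43.1 to 85.6 CPM per library. Cldn7, a claudin of many epithelia (chromosome 11, 69964779 to 69967885, plus strand), had no count with GFP, 1, 2 and 2 in wild type with IL-23, and 0, 0 and 1 in Mdl-1-/- with IL-23. All single values of both genes are at or under the 3 counts that a count of 0 allows, and differences between groups could not be detected at such depth.

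Of the 8 tested members, 3 were called for IL-23 against GFP in wild type, 1 higher and 2 lower, where 44.7% of all tested genes were called, 22.9% higher and 21.7% lower. The members' median log2 fold change was 0.16, against -0.04 over all tested genes, so the share of members called is near the background. Between genotypes under IL-23, 2 members were called, both higher, against 17.7% of all genes (7.58% higher and 10.1% lower). The members' median there was 0.60 and that of all genes 0.00160. For the Mdl-1-/- IL-23 ears over GFP, 4 members were called, all higher, against 17.1% of all genes (10.2% higher and 6.93% lower), with medians of 0.72 and -0.02. The groups did not overlap for 3, 3 and 5 of the 8 members in these comparisons, where they did not overlap for 54.6%, 36.5% and 35.8% of all tested genes, so the first count lies below that background and the second near it. The comparisons share libraries and are not independent of each other. The members were chosen with earlier results of these data known, so their shares and medians beside those of all genes are a description. With upper-quartile factors the share of called genes that were higher went from 51.3% to 38.9%, from 42.9% to 53.2% and from 59.4% to 43.7%, and by total counts to 22.7%, 67.0% and 26.1%, while all-gene medians moved by -0.15, 0.06 and -0.10 and by -0.40, 0.16 and -0.25. In bulk ear RNA, fewer cells of a type and less RNA per cell cannot be told apart.

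**Figure D2:**
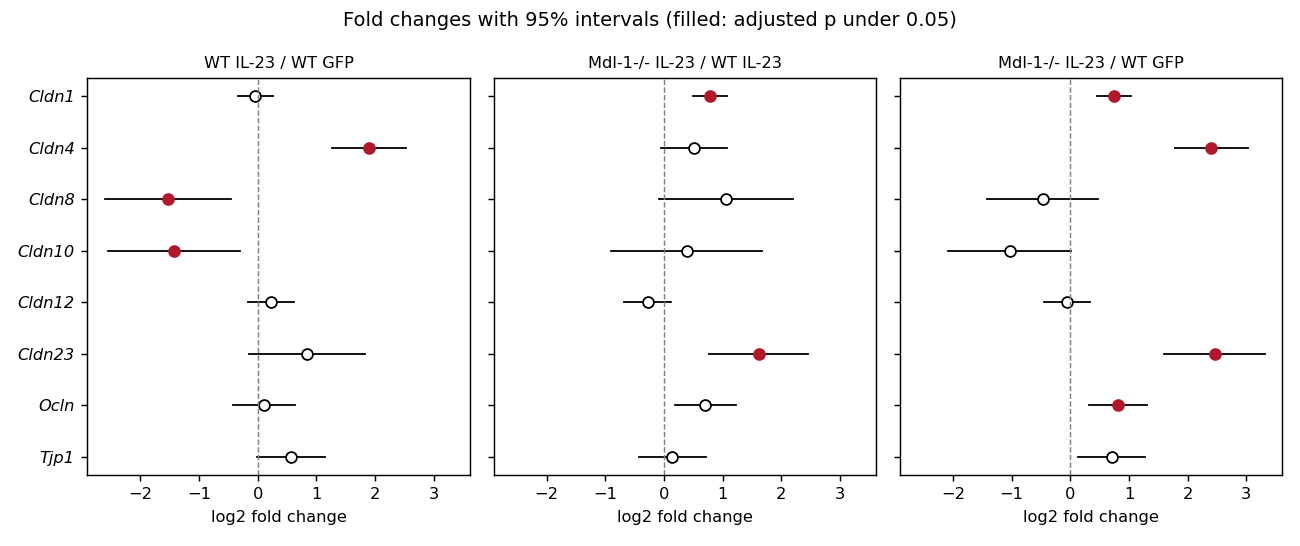
Log2 fold change of each tested gene in the 3 comparisons, with 95% intervals as lines; filled points have an adjusted p under 0.05 over all tested genes (edgeR) and the dashed line marks no change. Cldn4 is filled in both comparisons with GFP and Cldn1 in both comparisons of Mdl-1-/- ears.

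**Figure D3:**
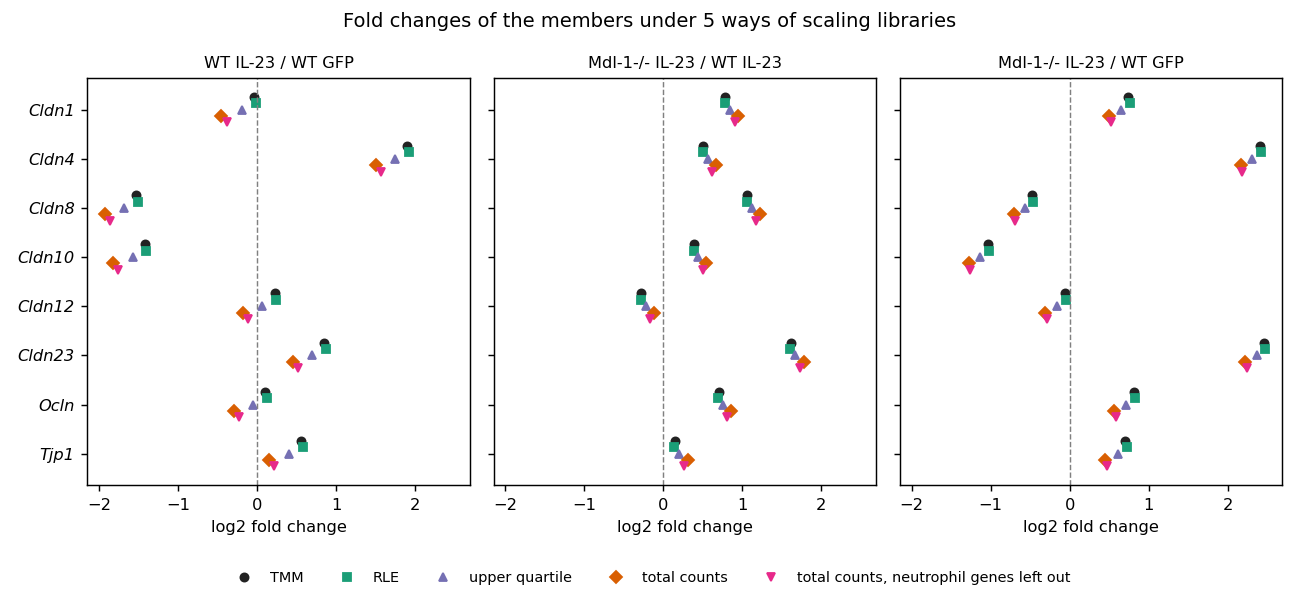
Log2 fold change of each tested gene under 5 ways of scaling libraries, in the 3 comparisons. Total-count scaling moves all genes together, downward where IL-23 is set against GFP. For wild type Cldn1, Cldn12 and Ocln lie below 0 under it, while Cldn4, Cldn8 and Cldn10 keep their side of 0. Cldn1 lies below 0 under TMM as well, and Ocln with upper-quartile factors.

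Log2 fold changes in the authors' deposited table correlated with those given here at r = 1 across genes, and at r = -1 for the genotype comparison, which that table gives as wild type over Mdl-1-/-. In the authors' deposited table Cldn4 (false discovery rate 7.47e-10) and Cldn8 (0.0164) passed 0.05 for IL-23 in wild type, and Cldn10 (0.125) did not. Cldn1 (0.000334) and Cldn23 (0.00370) passed between genotypes in the authors' deposited table, where Ocln had 0.191. For the Mdl-1-/- IL-23 ears over GFP, the authors' deposited table had Cldn1, Cldn4 and Cldn23 under 0.05 and Ocln at 0.0524.

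The make-up of the claudin tags does not depend on how libraries are scaled. Cldn1 gave 81.8%, 74.3% and 77.8% of the counts of the 8 claudins in the GFP libraries, 67.6%, 67.9% and 69.8% in wild type with IL-23, and 71.6%, 75.4% and 78.3% in Mdl-1-/- with IL-23. Exact (Clopper-Pearson) 95% intervals of single libraries were up to about 4 points wide on each side, for example 64.0% to 71.0% in wild-type IL-23 library 1, and they cover counting error only, with tag reads taken as independent. The wild-type IL-23 libraries are the lowest of all 9 and do not overlap with either other group. The mean share differed from that with GFP by -9.52 percentage points, with an exact permutation p of 0.1 (two-sided), the smallest that 3 libraries against 3 allow (adjusted 0.15 over 6 comparisons). Cldn4 gave 2.48%, 7.71% and 4.11% with GFP, 16.6%, 16.5% and 13.3% in wild type with IL-23, and 17.4%, 13.3% and 10.7% in Mdl-1-/- with IL-23, so that each IL-23 library exceeded each GFP library (exact permutation p = 0.1 for each genotype, adjusted 0.15). Between genotypes under IL-23, the Cldn1 share differed by 6.66 points (exact permutation p = 0.1, adjusted 0.15) and the Cldn4 share by -1.66 points (exact permutation p = 0.7). Cldn12 gave 11.7% to 12.6% with GFP, 12.8% to 13.1% in wild type with IL-23 and 5.59% to 8.30% in Mdl-1-/- with IL-23, which is a description with no test. Its own level was not called different, and the denominator holds the higher Cldn1. Likewise the Cldn1 share in wild type with IL-23 has its denominator in common with Cldn4, whose mean share differed from GFP by 10.7 points. The shifts of these 2 shares are not separate results. The TMM-scaled level of Cldn1 itself was not called different in that comparison (log2 -0.04).

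**Figure D4:**
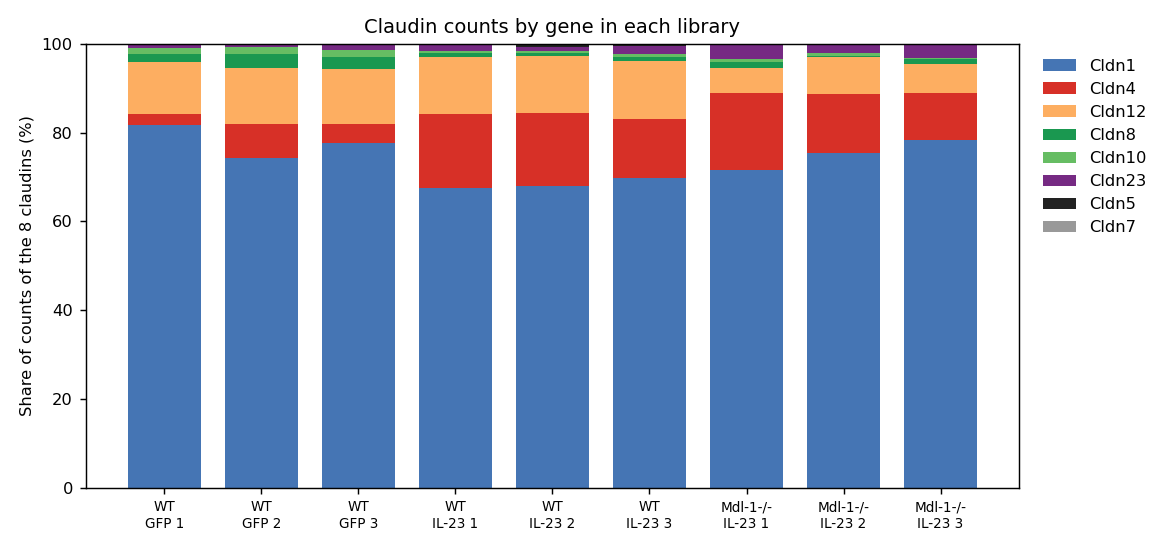
Share of each claudin in the summed counts of the 8 claudins, 1 stacked bar per library, in percent. Cldn1 makes up 67.6% to 81.8% of every bar, and Cldn4 widens from 2.48% to 7.71% with GFP to 10.7% to 17.4% with IL-23.

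Of 20 further claudins listed, 19 were in the tables and 1, Cldn34c1, was tested and not called in any comparison. Cldn19, a claudin of myelinating Schwann cells, had 16 counts in all with GFP, 6 in wild type with IL-23 and 3 in Mdl-1-/- with IL-23. Cldn2, Cldn3, Cldn11 and Cldn15 had 8 to 14 counts over all 9 libraries, and 12 of the 19 had no count with GFP.

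Of 13 other membrane proteins of the junction, 8 were tested. With IL-23 in wild type 2 of these rose and 5 fell, where 22.9% of all tested genes were higher and 21.7% lower. The 2 that rose were Cxadr, the coxsackievirus and adenovirus receptor (3.80-fold, from 103 ± 27.4 to 392 ± 95.1 CPM, SD, n = 3), and F11r, which encodes JAM-A (2.75-fold, from 176 ± 25.1 to 486 ± 24.4 CPM). The lowest were Jam3 (log2 -1.75), Pmp22 (-1.33), which also serves myelin, and Marveld2 (-1.18), which encodes tricellulin, the protein of 3-cell corners. Jam3 was read at 3.34 ± 2.21 CPM with GFP, its groups overlapped, and the fall missed the threshold without GFP library 1, GFP library 3 or any wild-type IL-23 library (edgeR adjusted p from 0.0575 to 0.197) and with limma voom (0.160). Between genotypes under IL-23 the only call among the 8 was F11r, lower in Mdl-1-/- (log2 -0.66, edgeR adjusted p = 0.00533). There 7.58% of all tested genes were higher and 10.1% lower. Against GFP, Mdl-1-/- IL-23 ears had higher Cxadr (1.55) and F11r (0.80) and lower Pmp22 (-1.21). Of all tested genes 10.2% were higher and 6.93% lower there.

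Of the scaffold and polarity proteins inside the junction, 23 of 25 listed names were in the tables and all 23 were tested. With IL-23 in wild type 2 rose, Pard3 (1.74-fold) among them, and 9 fell, where 22.9% of all tested genes were higher and 21.7% lower. The lowest were Pard3b (6.64-fold lower, from 25.7 ± 2.86 to 3.85 ± 1.78 CPM, SD, n = 3), the cingulin gene Cgn (3.55-fold lower) and Magi3 (3.48-fold lower). Between genotypes under IL-23, 4 were higher and 1 lower in Mdl-1-/-, where 7.58% of all tested genes were higher and 10.1% lower. Cgn, whose protein links ZO-1 to myosin, was 3.65-fold higher at 40.8 ± 19.2 against 11.1 ± 2.32 CPM (SD, n = 3, edgeR adjusted p = 0.00303), which is near the 39.7 ± 8.30 CPM of the GFP ears. Prkci, an atypical protein kinase C of cell polarity, was 2.61-fold higher (edgeR adjusted p = 0.0332), and Amotl1 1.61-fold higher (0.0104). Pard3 was lower (log2 -0.49, edgeR adjusted p = 0.0449). Prkci missed without any single IL-23 library of either genotype (edgeR adjusted p from 0.0515 to 0.124). Amotl1 missed without library 2 of wild type with IL-23 (0.0506) or Mdl-1-/- library 1 (0.0544). Pard3 missed without GFP library 1 or 3, wild-type IL-23 library 2 or 3, or any Mdl-1-/- library (0.0512 to 0.205), with upper-quartile factors (0.0643), with non-robust dispersions (0.0545) and by total counts (0.140). For the Mdl-1-/- IL-23 ears over GFP, 2 were higher, Ybx3 (0.56) among them, and 3 were lower: Pard3b (-1.73), Mpdz (-1.06) and Cgnl1 (-0.93). Of all tested genes 10.2% were higher and 6.93% lower there. Called in either direction were 44.7%, 17.7% and 17.1% of all tested genes in the 3 comparisons. The share of scaffold genes called lies near these. Ybx3 missed by total counts (0.0955). Cgnl1 missed without GFP library 2 (0.0524) or Mdl-1-/- library 2 (0.0727) or 3 (0.0648).

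**Figure D5:**
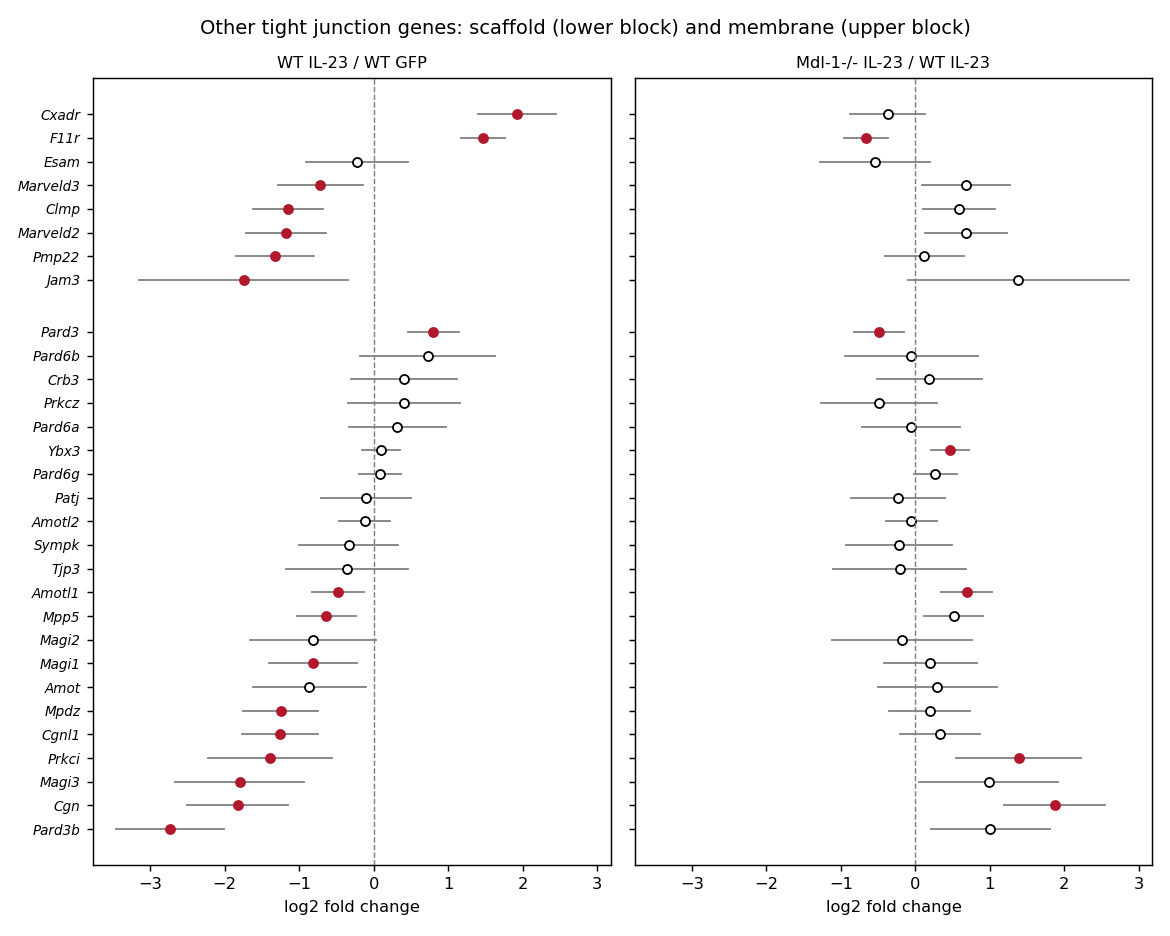
Log2 fold change with 95% interval of tested scaffold genes (lower block) and 8 tested membrane genes (upper block) besides the members, for IL-23 against GFP in wild type (left) and for the 2 genotypes under IL-23, with Mdl-1-/- over wild type (right). Filled points have an adjusted p under 0.05 (edgeR); left of 0 in the left panel, 9 scaffold and 5 membrane genes are filled, and Pard3b lies farthest to the left.

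Regulators of epithelial junctions were tested for 16 of 16 listed genes. With IL-23 in wild type 8 rose and 4 fell, where 22.9% of all tested genes were higher and 21.7% lower. The highest were the transcription factor genes Grhl3 (6.86-fold, from 5.12 ± 0.442 to 35.6 ± 14.5 CPM, SD, n = 3), Ovol1 (5.81-fold) and Ehf (5.42-fold). The lowest were Wnk4 (3.53-fold lower), a kinase gene of salt transport, Spint2 (2.69-fold lower), a protease inhibitor gene, and Mylk (2.02-fold lower), the gene of myosin light chain kinase. Spint2 overlapped between groups and missed without wild-type IL-23 library 2 (edgeR adjusted p = 0.0510), and Mylk missed without any GFP library or without wild-type IL-23 library 2 or 3 (0.0587 to 0.0964). With IL-23 given to both genotypes, Spint2 was 3.55-fold higher in Mdl-1-/-, and Ovol1 (log2 -0.95) and Spint1 (-0.55) were lower. That is 1 of 16 higher and 2 lower, near the 7.58% and 10.1% of all tested genes. Ovol1 missed without library 2 of wild type with IL-23 (0.0561) or Mdl-1-/- library 3 (0.0721). Spint1 missed without any library tried except wild-type IL-23 library 1 and Mdl-1-/- library 2 (0.0524 to 0.209) and under 8 other settings, DESeq2 (0.0551) and limma voom (0.0528) among them. Against GFP, 7 were higher and 1 lower in Mdl-1-/- IL-23 ears, led by Grhl3 (4.87-fold), Ehf (3.49-fold) and Ovol1 (3.01-fold), with Wnk4 lower (log2 -1.35). Of all tested genes 10.2% were higher and 6.93% lower there. Wnk4 missed without GFP library 1 (0.0685) or Mdl-1-/- library 1 (0.0667) or 2 (0.0803).

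Adherens junction genes, which hold the cells together below the tight junction, were tested for 12 of 12 listed. With IL-23 in wild type 5 rose, led by Nectin2 (3.38-fold), the P-cadherin gene Cdh3 (2.10-fold) and the plakoglobin gene Jup (1.91-fold), and Nectin3 fell (log2 -1.25). Of all tested genes 22.9% were higher and 21.7% lower there. Between genotypes Nectin3 was higher (log2 1.04) and Nectin2 lower (-0.62) in Mdl-1-/-. That is 1 of 12 in each direction, near the 7.58% higher and 10.1% lower of all tested genes. Nectin2 missed without wild-type IL-23 library 2 (edgeR adjusted p = 0.0745) or 3 (0.0963), without Mdl-1-/- library 1 (0.0661) or 3 (0.126), and by total counts (0.0847). Nectin3 missed without library 3 of wild type with IL-23 (0.0566) or Mdl-1-/- library 1 (0.0506). Against GFP 5 were higher in Mdl-1-/- IL-23 ears, led by Nectin4 (2.43-fold), Jup (2.20-fold) and Nectin2 (2.19-fold), and none was lower. Of all tested genes 10.2% were higher and 6.93% lower there.

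Markers of epidermal layers also differed between the groups, in both directions. Those of suprabasal and granular cells summed to 3821 to 7404 CPM with GFP, 12331 to 13402 CPM in wild type with IL-23 and 20221 to 25112 CPM in Mdl-1-/- with IL-23, with all 16 read in each group. Of the 16, 12 rose and 2 fell with IL-23 in wild type (median log2 1.57). Between genotypes under IL-23, 3 were higher and 2 lower in Mdl-1-/-, 11 were not called, and the median log2 was 0.063. The higher sum there came from Krt10, a keratin of suprabasal cells, at 2.95-fold higher in Mdl-1-/- (edgeR adjusted p = 0.000928). Without Krt10, left out after its values were seen, the sums were 1668 to 3774 CPM with GFP, 7542 to 8020 CPM in wild type with IL-23 and 7140 to 8695 CPM in Mdl-1-/- with IL-23. Basal keratinocyte markers, a list that also held Krt6a, a stress keratin gene of wounded epidermis, summed to 10619 to 13160, 14599 to 19426 and 8863 to 12753 CPM in the same order. With IL-23 in wild type 3 of 13 rose and 5 fell (median log2 -0.27). Krt14 alone read 3275 to 5329 CPM with GFP and 8258 to 10466 CPM in wild type with IL-23. Krt5 read 1479 to 1749 and 869 to 1949 CPM. Between genotypes 2 basal markers were higher, 3 lower and 8 not called, as Mdl-1-/- over wild type. Sebaceous markers summed to 5320 to 6441, 1710 to 2846 and 2353 to 3112 CPM, with 12 of 14 tested lower with IL-23 in wild type and 1 higher. Of all tested genes 22.9% were higher and 21.7% lower with IL-23 in wild type, and 7.58% and 10.1% between genotypes. What part the shifts of these markers have in the levels of Cldn1, Cldn4, Cldn8, Cldn10 and Cldn23 was not tested.

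Of the other tissues in the ear, with IL-23 in wild type 7 of 8 tested adipocyte markers, 6 of 7 cartilage markers, 4 of 10 skeletal muscle markers and 2 of 8 endothelial markers were lower and no marker of these 4 lists was called higher, where 21.7% of all tested genes were lower and 22.9% higher. Schwann cell markers went both ways, with 5 of 6 lower and 1 higher. Fibroblast markers had 3 of 8 lower and 1 higher. Hair follicle markers had 3 of 7 lower and 1 higher, with a median log2 of 0.69. Higher with IL-23 were 8 of 9 neutrophil markers, 6 of 8 Langerhans and dendritic cell markers, 5 of 8 T and innate lymphoid markers and 3 of 4 simple epithelium markers, and no marker of these 4 lists was called lower. The simple epithelium markers tested were Epcam, Krt23, Cdh1 and Krt79, while Krt7, Krt8, Krt18 and Krt19 were too low to test. Epcam is also counted among the Langerhans and dendritic cell markers. The 2 tested markers of that list not called were Cd207 (log2 1.09, edgeR adjusted p = 0.118) and Zbtb46 (log2 -0.47). Macrophage markers had 2 of 9 higher, 1 lower and 6 not called, which is near the background. Of the neutrophil markers, 4 of 9 were lower in Mdl-1-/- than in wild type with IL-23, where 10.1% of all tested genes were lower.

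Genes whose log2 CPM followed each member most closely over the 9 libraries were named among 8188 genes with a mean of at least 10 CPM, as a description. All values share library depth and the 3 groups. For Cldn1 they were the ribosomal protein genes Rpl39 (Pearson r 0.971) and Rps24 (0.966) with the pseudogene Rps6-ps1 (0.968). For Cldn4 they were 2310046K23Rik (0.990), Cebpa (0.990) and Pla2g2f (0.987). For Cldn23 they were Rpl36a-ps1 (0.982), Gltp (0.962) and Krt10 (0.960), and for Ocln Gm4786 (0.969), Cdkn1a (0.967) and Rpl18 (0.963). Cldn8 followed Gm49599 (0.968), Wdr13 (0.961) and Usp15 (0.953), Cldn10 followed Mynn (0.961), Tnrc6b (0.957) and Cald1 (0.937), Cldn12 followed Coq5 (0.932), Fubp3 (0.932) and Nampt (0.911), and Tjp1 followed Gm14539 (0.965), Far1 (0.954) and Ext1 (0.953). Among the members, Cldn23 and Cldn1 ran most closely together (r 0.849), then Cldn23 and Ocln (0.841), while Cldn8 and Cldn12 ran opposite (-0.716).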

How the data were processed

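Members and gene lists were chosen with earlier results of these data known. Raw counts per Ensembl gene were deposited by the authors; per the submitters' processing notes they used STAR 2.7.0a, featureCounts and edgeR. The notes name build GRCh38.p6, a human name, while identifiers are mouse; the sources used here give neither annotation release nor strand setting. The authors' deposited comparison tables hold log2 fold changes, p-values and false discovery rates. Libraries stood in 2 tables each with identical values (0 differed) and were joined by gene.

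Counts were tested with edgeR 4.0.16 (R 4.3.3): filterByExpr (minimum count 10, total 15; 13807 genes), TMM, 1 model of 3 group means over 9 libraries, robust quasi-likelihood F-test, Benjamini-Hochberg adjusted p under 0.05. Alternatives used DESeq2 1.42.0 and limma 3.58.1. The procedure was tested on data simulated from the fitted spread with fewer changed genes than were called here. A shift of the size seen with IL-23 was not simulated. All 10 members are described; per junction list and comparison, up to 3 called genes highest and 3 lowest by log2 fold change are named; markers of 15 cell types were counted. Similar genes are the 3 with highest r (prior count 2). The last 400 bases of 27 coding transcripts shared 0 words of 50 bases with other genes. Genes overlapping Cldn10 and Tjp1 held at most 3 counts in a library. Among the scaffold genes, 1 is counted but is not reported here.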

Additional observations from a re-analysis of the deposited data

How the results depend on the processing

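Besides the cases given with each gene, members called for IL-23 in wild type numbered 1 with a minimum count of 30, where neither Cldn8 nor Cldn10 was tested, and 1 to 3 without single libraries; between genotypes they numbered 1 to 3 without single libraries. All genes called numbered 1128 to 2802 between genotypes and 1340 to 2580 for Mdl-1-/- IL-23 against GFP without single libraries, the lowest without wild-type IL-23 library 2 and without GFP library 3; leaving a library out lowers the number of samples. Signs turned for differences near 0. Ocln with IL-23 in wild type was -0.046892 with upper-quartile factors, -0.28673 by total counts and -0.22415 by total counts without neutrophil genes, and from -0.095084 to 0.21978 without single libraries. Cldn12 was -0.18505 and -0.11999 by the same total counts, and from -0.18936 to 0.035174 for Mdl-1-/- IL-23 against GFP without single libraries. Cldn1 with IL-23 in wild type ran from -0.12901 to 0.041358 without single libraries. The 2 total-count settings were chosen after seeing the data. The Cldn1 share difference ran from -11.35 to -7.604 points without single libraries. With a replicate block, 2, 2 and 5 members and 6257, 2800 and 2682 genes were called. Same-numbered libraries deviated together with r from -0.0863 to 0.23, and differently numbered ones with r from -0.214 to 0.175. The highest value belonged to a same-numbered pair, library 1 of each genotype with IL-23. With 3 libraries a group this check cannot show whether the numbers pair the samples. Depth limits Cldn5 and Cldn7 most, then Cldn8, Cldn10 and Cldn23.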
